A study of Caenorhabditis elegans with 2 samples.

Results

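The peaks described here are sites recovered with the UNC-86::GFP fusion protein in late Caenorhabditis elegans embryos. They lie at protein-coding promoters and away from small RNA genes. They were chosen by the measured position of the summit, from the list of peaks that passed the authors' irreproducible discovery rate (IDR) comparison. A peak was kept where its summit lay within 1 kb of an annotated protein-coding transcript start and more than 300 bp from the midpoint of every tRNA, snoRNA, snRNA and miRNA gene. Of the 816 peaks in the list, 584 lay at a promoter, and 497 of these were kept. The other 87 promoter peaks lay near a small RNA gene, most often a tRNA gene (55 peaks) or a snoRNA gene (25 peaks), and 232 peaks lay farther than 1 kb from every start. The IDR list was itself selected on peak signal, so signal is given as a description throughout and nothing is tested on it.

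The study holds 1 group of 2 biological replicates and no second condition. Both are hermaphrodite whole embryos of the strain OP476, genotype unc-119(tm4063) III; wgIs476, collected 3.5 hours after synchronization by egg bleaching. The integrated transgene expresses UNC-86 with a C-terminal GFP-FLAG tag, and chromatin was precipitated with an antibody against GFP after sonication. Every peak therefore reports DNA recovered with that antibody from chromatin pooled from whole animals, and the cells it came from are not resolved. The labels do not name the promoter that drives the fusion. A control alignment entered each peak list, per the file headers, and no list from embryos without the transgene was used here. Enrichment that does not depend on the fusion protein cannot be told apart from its binding. The lists hold 12784 peaks from the pooled reads, 17498 from replicate 1 and 18470 from replicate 2. Their titles describe them as peaks and background given to the IDR comparison, so an entry need not be a bound site. The lists give no read counts, so the depth behind each peak is unknown.

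The unc-86 gene encodes a protein of the POU homeodomain family that specifies several classes of worm neurons. In touch receptor neurons it acts together with the LIM homeodomain protein MEC-3. Chromatin immunoprecipitation followed by sequencing recovers the DNA bound, directly or through other proteins, by the tagged factor. Many worm genes are packed closely, and adjacent genes transcribed away from each other can share the DNA between their starts. Such an arrangement is called a divergent promoter here where a minus-strand start and a plus-strand start of different genes flank each other within 1 kb of the summit. A promoter is one-sided where all starts within 1 kb are on the same strand. Many worm messenger RNAs are trans-spliced, so an annotated start can mark the splice acceptor and not the first transcribed base.

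The sequences at the summits of the 8 strongest of these promoters that lie outside annotated exons and in single-copy sequence are shown, because the strongest peaks define what the list holds at its top. Each gene is shown once, and sequence from 1 chromosome is not shown. Each is 101 bases of the plus strand of the ce11 assembly (WBcel235), centred on the summit, and capitals mark any of 13 short words that were searched on both strands.

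K12H4.5, chrIII:8043908-8044008: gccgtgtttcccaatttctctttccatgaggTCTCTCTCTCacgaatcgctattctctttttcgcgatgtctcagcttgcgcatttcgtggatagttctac
tasp-1, chrIII:10759156-10759256: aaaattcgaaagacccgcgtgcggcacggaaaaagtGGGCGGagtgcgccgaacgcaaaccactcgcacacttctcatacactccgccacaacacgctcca
ftt-2, chrX:11605903-11606003: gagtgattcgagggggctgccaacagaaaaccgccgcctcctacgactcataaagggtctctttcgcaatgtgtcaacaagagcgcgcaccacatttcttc
rpl-3, chrIII:3867525-3867625: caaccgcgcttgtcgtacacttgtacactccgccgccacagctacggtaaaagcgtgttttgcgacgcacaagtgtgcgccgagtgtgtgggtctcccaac
rpl-15, chrIV:654871-654971: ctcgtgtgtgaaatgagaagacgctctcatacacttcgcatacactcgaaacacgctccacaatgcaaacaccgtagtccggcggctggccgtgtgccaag
rpl-35, chrIII:7854654-7854754: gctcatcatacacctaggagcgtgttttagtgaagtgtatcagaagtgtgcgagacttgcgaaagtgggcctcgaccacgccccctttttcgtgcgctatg
atx-2, chrIII:10461265-10461365: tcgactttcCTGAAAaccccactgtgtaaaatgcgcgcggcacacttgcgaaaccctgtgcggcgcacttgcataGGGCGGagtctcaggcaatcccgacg
snx-13, chrIV:17087563-17087663: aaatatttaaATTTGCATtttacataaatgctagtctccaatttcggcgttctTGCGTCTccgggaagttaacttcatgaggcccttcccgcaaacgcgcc

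GC content of these 8 sequences lay between 43.6% and 58.4%. Capitals in the K12H4.5 sequence mark a GA-rich run (GAGAGAGA on the other strand). Those in the tasp-1 and atx-2 sequences mark CCGCCC on the other strand, and those at atx-2 also TTTCAG on the other strand. The snx-13 sequence carried both TGCGTCT and, on the other strand, the octamer ATGCAAAT, a classical binding word of POU domain proteins. No word of the 13 fell in the 101 bases at ftt-2, rpl-3, rpl-15 or rpl-35. The next 6 sequences are the strongest others with a GA-rich run (hsp-1, gpb-1), with TGCGTCT (sec-61.G, mdt-26) and with AATGCAT, a word known from the mec-3 promoter (F08F8.10, pak-2). These 3 words are shown because each was counted more often at the summits than in their flanks, though for AATGCAT the interval of the difference took in 0 with either replicate left out.

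hsp-1, chrIV:17278520-17278620: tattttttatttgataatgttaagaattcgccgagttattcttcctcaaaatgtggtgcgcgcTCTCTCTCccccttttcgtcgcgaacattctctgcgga
gpb-1, chrII:11746904-11747004: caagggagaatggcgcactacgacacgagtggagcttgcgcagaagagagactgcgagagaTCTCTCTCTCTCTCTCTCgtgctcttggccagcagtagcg
sec-61.G, chrV:10897262-10897362: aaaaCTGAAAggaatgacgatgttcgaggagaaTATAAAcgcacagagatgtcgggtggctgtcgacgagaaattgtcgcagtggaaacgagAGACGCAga
mdt-26, chrII:5661878-5661978: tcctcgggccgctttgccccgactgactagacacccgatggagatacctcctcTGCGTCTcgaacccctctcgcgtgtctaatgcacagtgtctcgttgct
F08F8.10, chrIII:7357525-7357625: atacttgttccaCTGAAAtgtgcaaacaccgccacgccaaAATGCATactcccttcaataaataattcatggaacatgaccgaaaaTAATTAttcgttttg
pak-2, chrV:11039731-11039831: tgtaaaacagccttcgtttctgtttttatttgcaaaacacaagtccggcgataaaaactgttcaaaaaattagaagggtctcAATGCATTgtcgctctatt

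The strongest peak lay 529 bp upstream of K12H4.5 (chrIII:8043781-8044170), which RefSeq lists as an uncharacterized protein. Its signal was 838 in the IDR list, 483 in the replicate 1 list and 358 in the replicate 2 list, rank 1 in each. The next was an intronic summit 980 bp upstream of a start of M01F1.9, an arrestin-domain protein, at a signal of 449. It ranked 3 in replicate 1 and 9 in replicate 2. Both stood far above the bulk of the peaks. The 497 peaks had a median signal of 87.2, with quartiles of 72.8 and 115, and the lowest had 64.7. Signal exceeded 100 in 170 peaks (34.2%) and 200 in 30 peaks (6.04%).

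The other strong peaks lay at genes with a range of products. ftt-2, a 14-3-3 protein gene, had summits at a signal of 410 (534 bp upstream) and 322 (733 bp upstream) inside 1 interval on chromosome X. The ribosomal protein gene rpl-3 had a signal of 408 at 279 bp upstream, with 191 in replicate 1 and 218 in replicate 2. The large-subunit genes, rpl-15 and rpl-35, had signals of 308 and 297. At rpl-15 the replicates had 151 and 152, and at rpl-35 155 and 141, so the replicates were close to each other. tasp-1, which encodes a threonine aspartase homolog, had a signal of 420, and ears-2, a mitochondrial glutamyl-tRNA synthetase gene, had 375.

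Further down, cdc-48.1 (signal 258), an AAA ATPase that extracts ubiquitylated proteins, lay beside T13C5.6 (263), a phosphatase-domain gene, in rank. Y22D7AL.10 and hsp-60 encode the 10 kDa and 60 kDa subunits of the mitochondrial chaperonin, and 1 summit of signal 222 lay 176 bp upstream of the first and 637 bp upstream of the second. hsp-1, a constitutive Hsp70 gene, had a signal of 210 at 389 bp upstream. Its signal was 118 in replicate 1 and 96.8 in replicate 2. rps-28, a small-subunit ribosomal protein gene, had 203 at 440 bp upstream. nspc-17, of a nematode-specific peptide family, was also present, with a signal of 244 at 721 bp upstream, and spe-48 had 202 at 25 bp upstream.

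All 30 summits lay upstream of the nearest start. They were divergent in 15 cases, lay between genes in 28 and in an intron in 2 (M01F1.9 and K05C4.2, a jagunal homolog). The rank was 100 or better in both replicates for 29 of the 30, and the worst ranks were 102 in replicate 1 and 92 in replicate 2. These peaks were picked by a signal from the pooled reads of both replicates, which favours high ranks in each, so the ranks are a description. The other genes of the 30 were Y17G9B.5, tos-1, W03C9.5, Y39E4B.6, vps-51, nmad-1, dnj-29, C16C10.4, F39G3.3 and B0495.9, with signals between 208 and 253.

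**Figure D1:**
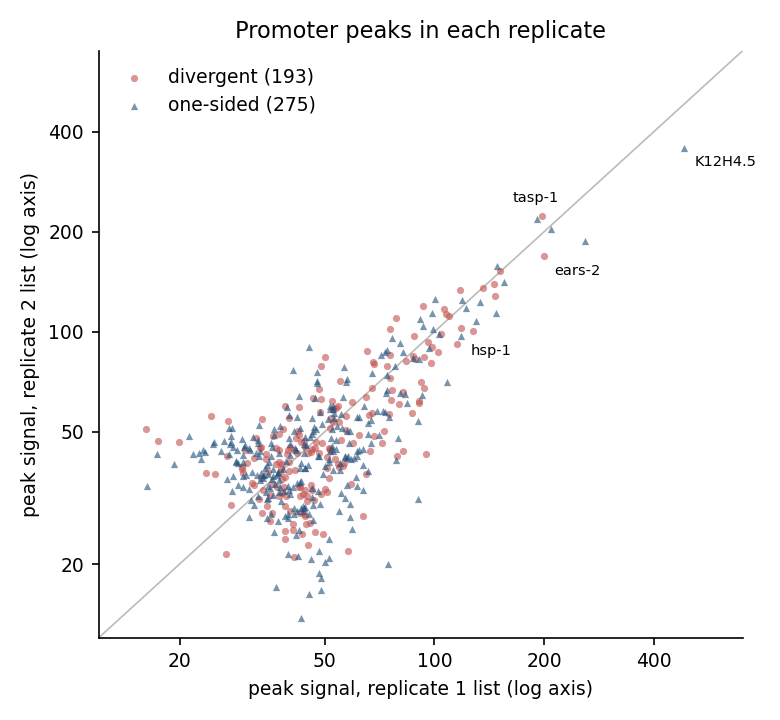
Signal of each promoter peak in the replicate 1 list (x axis) and the replicate 2 list (y axis), both log axes in the authors' signal unit, for 193 divergent peaks (circles) and 275 one-sided peaks (triangles) matched in both lists; the line marks equal signal. The strongest peaks lie along the line up to K12H4.5, and the weaker ones form a broad cloud.

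The replicates were closer to each other at strong peaks than at weak ones. A summit was matched where a summit of the replicate list lay within 100 bp of it, and 469 of the 497 peaks were matched in both lists. The replicate lists include background, and the worst matched ranks were 9205 in replicate 1 and 17704 in replicate 2. A match alone is therefore weak support. No match was found for 7 peaks in replicate 1 and for 21 in replicate 2. The signals of the replicates were within 2-fold of each other for 442 of the 469, and for 163 of the 166 with a signal over 100. Across the 469 matched peaks the replicate signals had a Pearson correlation of 0.676 on the log2 scale and a Spearman correlation of 0.532, as a description over peaks that share the same libraries. The median distance between the summits of the replicates was 25 bp.

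The lists contain far more peaks than the IDR list, so each replicate was also cut to its 816 strongest. Of the promoter peaks, 390 (78.5%) were among the strongest of replicate 1, 366 (73.6%) among those of replicate 2, and 281 (56.5%; 95% Wilson interval 52.1% to 60.8%) among both, while 22 were among neither. The same share was 73.6% (64 peaks) for the 87 promoter peaks near small RNA genes, whose median signal was 111 against 87.2, and 65.5% (152 peaks) for the 232 peaks far from a start. Membership of these strongest sets is a rank by signal, so the shares are given with no test. In 5 sets of equal size by signal, the share was 96.0% in the strongest set, 93.0%, 71.7% and 20.2% in the next ones and 1.01% in the weakest. The weakest set spans signals of 64.7 to 71.4. Because both replicates entered the IDR list, these shares describe it and are no independent check.

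The peaks that single replicates carried include genes named below. mdt-26, a Mediator subunit gene, had 90.4 in replicate 1 and 31.4 in replicate 2. mrps-7, a mitochondrial ribosomal protein gene, had 17.5 in replicate 1 and 46.8 in replicate 2. The histone H1 gene hil-7 had 70.9 in replicate 1 and no summit in replicate 2 within 100 bp, whereas kars-1, a lysyl-tRNA synthetase gene, had 34.2 in replicate 2 and none in replicate 1. Values for these 4 genes rest on 1 replicate more than on the other.

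The summits were concentrated just upstream of the starts. The median signed distance to the nearest start was -179 bp (95% order-statistic interval -194 to -170; quartiles -286 and -95), where negative is upstream. Of the 497, 455 (91.5%; 88.8% to 93.7%) were upstream. Among the 87 promoter peaks near small RNA genes 51 (58.6%) were upstream, and among the 5378 weaker promoter peaks of the pooled list 3189 (59.3%) were. Those weaker peaks met the same distances but lay below the IDR list, at signals of 25.6 to 64.7. They come from a list that includes background, and the part of background among them is unknown, here and in every comparison below. The difference in the upstream share was 32.9 points (22.8 to 43.6) against peaks near small RNA genes and 32.3 points (29.2 to 34.8) against weaker promoter peaks. The window of 1 kb chose all 3 sets alike and fixed neither side of the start.

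**Figure D2:**
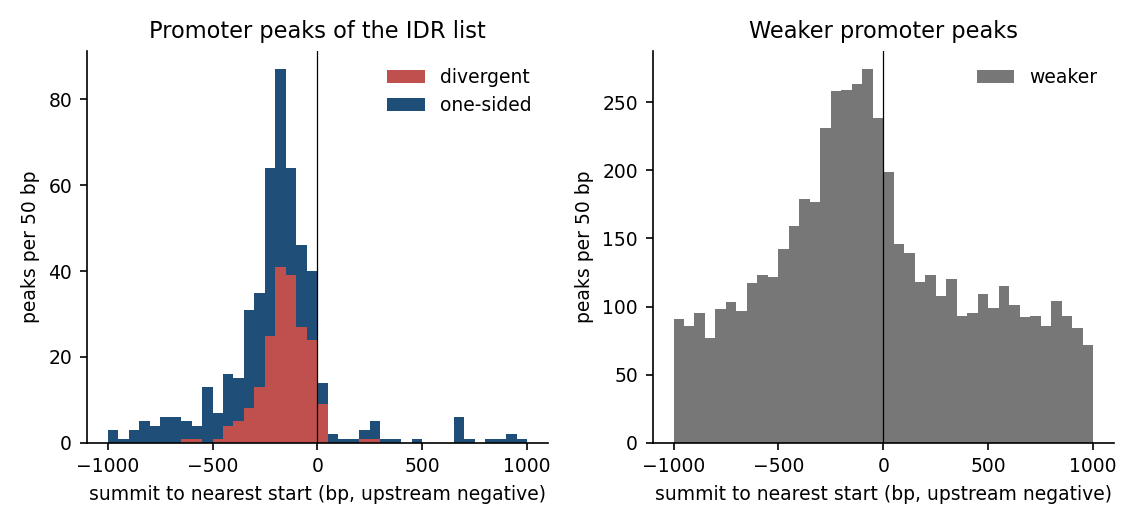
Histograms, in 50 bp bins, of the signed distance from summit to nearest protein-coding transcript start (x axis, bp, upstream negative) for the promoter peaks of the IDR list (left; divergent and one-sided stacked) and the weaker promoter peaks (right). The left panel has a narrow mode between 100 and 300 bp upstream, and the right panel spreads over both sides of the start.

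Few summits lay downstream. From 100 to under 300 bp upstream lay 251 peaks (50.5%), against 1009 weaker peaks (18.8%). Downstream of the start by more than 300 bp lay 16 peaks (3.22%), against 1353 weaker peaks (25.2%). The highest signals were not all close to the start: the bin from 500 to 1000 bp upstream held 50 peaks (10.1%) with a median signal of 92.7 and a maximum of 838, and the bin from 100 to under 300 bp a median of 94.2 and a maximum of 420. By annotation, 411 summits (82.7%) lay between genes, 60 (12.1%) in an intron, 19 (3.82%) in a 5′ UTR and 4 (0.805%) in a coding exon.

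Divergent promoters were frequent. Of the 497 peaks, 200 (40.2%; 95% Wilson interval 36.0% to 44.6%) were divergent, 296 were one-sided and 1 had starts on both strands in another arrangement. The divergent share was 11.5% (10 of 87) for promoter peaks near small RNA genes and 13.2% (710 of 5378) for weaker promoter peaks. A position 179 bp upstream of the outermost start of every protein-coding gene, again more than 300 bp from small RNA genes, was divergent for 4040 of 19840 genes (20.4%). The peaks exceeded these by 28.7 points (95% Newcombe interval 19.4 to 35.5), 27.0 points (22.7 to 31.5) and 19.9 points (15.6 to 24.3). The intervals cover counting error over peaks, which come from the same 2 libraries. The weaker peaks also lay farther from the starts, and the part of that in the difference was not tested.

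The divergent share was 50 of 100 peaks (40.4% to 59.6%) in the strongest of the 5 sets by signal and 32 of 99 (32.3%; 23.9% to 42.0%) in the weakest, intervals that overlap slightly. The median signal was 90.9 for divergent peaks (quartiles 74.7 and 125) and 83.8 for one-sided peaks (72.0 and 108). The median distance from the nearest start, without sign, was 152 bp for divergent peaks and 244 bp for one-sided peaks. Within 300 bp of a start were 180 of 200 divergent peaks (90%) and 182 of 296 one-sided peaks (61.5%). A summit between a pair of starts is nearer to one of them by construction, and 189 of the 200 (94.5%) were upstream of both. The gap between the paired starts had a median of 498 bp (quartiles 334 and 732). In the 189, the summit stood at a median of 32.3% of the gap from the nearer start.

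**Figure D3:**
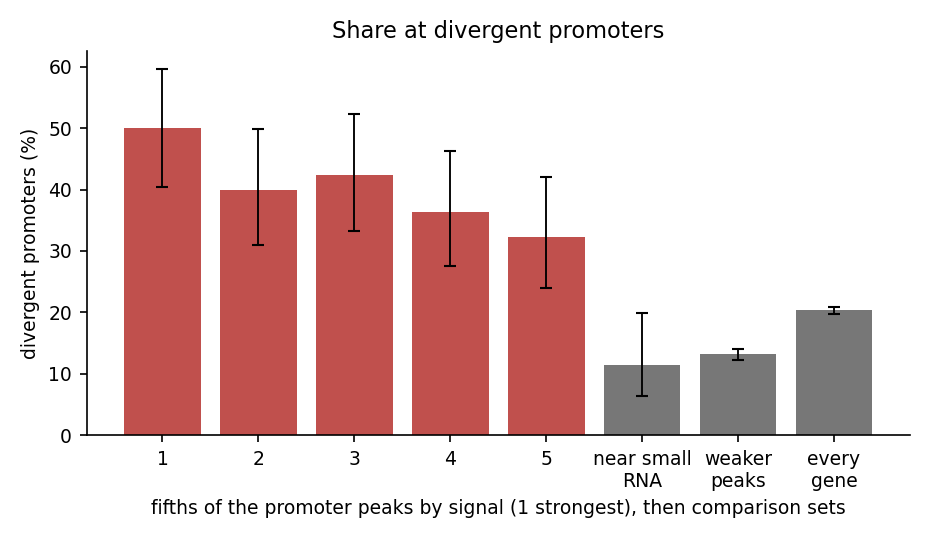
Percentage at divergent promoters (y axis) with 95% Wilson intervals for the promoter peaks in 5 sets of equal size by signal (left 5 bars, strongest first), then promoter peaks near small RNA genes, weaker promoter peaks, and a position upstream of every protein-coding gene. The 5 sets range from 50% to 32.3%, and the 3 comparison bars are 11.5%, 13.2% and 20.4%.

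The 5 strongest divergent promoters each lay between genes of different products. The tasp-1 summit lay 101 bp upstream of tasp-1 and 684 bp upstream of K01G5.10, a haloacid dehalogenase-like gene, with a signal of 197 in replicate 1 and 223 in replicate 2. ears-2 and uncp-18, which RefSeq lists as a syntaxin-binding protein, had a summit 42 bp and 50 bp upstream of their starts, almost midway, with 199 and 169 in replicates 1 and 2. rpl-15 was paired with K11H12.8, a transmembrane protein gene, 345 bp and 469 bp away.

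atx-2, an ataxin-2 related RNA regulator, was paired with ecps-1, of the proteasome-associated Ecm29 family, at 74 bp and 764 bp, and its signal was 282. idhg-1 and mlcd-1, a mitochondrial isocitrate dehydrogenase subunit and a malonyl-CoA decarboxylase, had a summit 44 bp and 623 bp upstream with a signal of 272. At tasp-1, atx-2 and idhg-1 the summit was close to 1 gene, so the further gene is assigned by the 1 kb rule alone.

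A protein-coding gene was counted as having a promoter peak where any of its transcript starts lay within 1 kb of a summit. This held for 718 of 19973 genes (3.59%). The 497 peaks had 482 distinct nearest genes, of which 15 had 2 summits and none had 3 or more. A single gene lay within 1 kb for 266 peaks, and 2 genes for 211. Gene class symbols, which are given to studied genes, were carried by 340 of the 482 nearest genes (70.5%) and by 10896 of all 19973 genes (54.6%). The product was listed as an uncharacterized protein for 21 of the 482 (4.36%) and for 1851 of all genes (9.27%).

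The genes were sorted into 23 lists by symbol. For 17 lists of general cellular machinery, 214 of 1152 genes (18.6%; 16.4% to 20.9%) had a promoter peak, beside the 3.59% over all genes. Read by peak, 195 of 497 peaks (39.2%) had at least 1 gene of these lists within 1 kb, against 614 of 5378 weaker promoter peaks (11.4%), a difference of 27.8 points (95% Newcombe interval 23.5 to 32.3). Divergent promoters bring 2 genes within reach, so the nearest gene was counted too: it belonged to the 17 lists for 139 peaks (28.0%) and for 474 weaker peaks (8.81%). Counted by nearest gene alone, 2.41% of all genes had a peak, and the shares of 8 of the 17 lists were lower by more than 1.5 times: 18.5% for cytosolic ribosomal proteins, 17.8% for chaperones, 16.4% for splicing, 8.82% for ribosome biogenesis, 7.69% for RNA polymerase and Mediator, 7.23% for the cytoskeleton, 7.14% for nuclear pore and transport and 4.94% for histones. Of these, the interval for histones then took in the share of all genes. By nearest gene the share of the 17 lists was 29.5% (59 of 200) at divergent peaks and 26.9% (80 of 297) at the others. The lists were drawn up with earlier results of these data known, so their counts describe and do not test. The value named below for a listed gene is its strongest summit within 1 kb, which can lie nearer to another gene. This was so for snr-1, prp-19, lin-35, mrg-1, mcm-10, ndua-2 and cox-6B, among others. The emb-1, mdt-19, rab-7, tbg-1 and exos-9 summits were also nearest to other genes. They lay 733, 757, 788, 842 and 967 bp upstream of the listed ones.

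**Figure D4:**
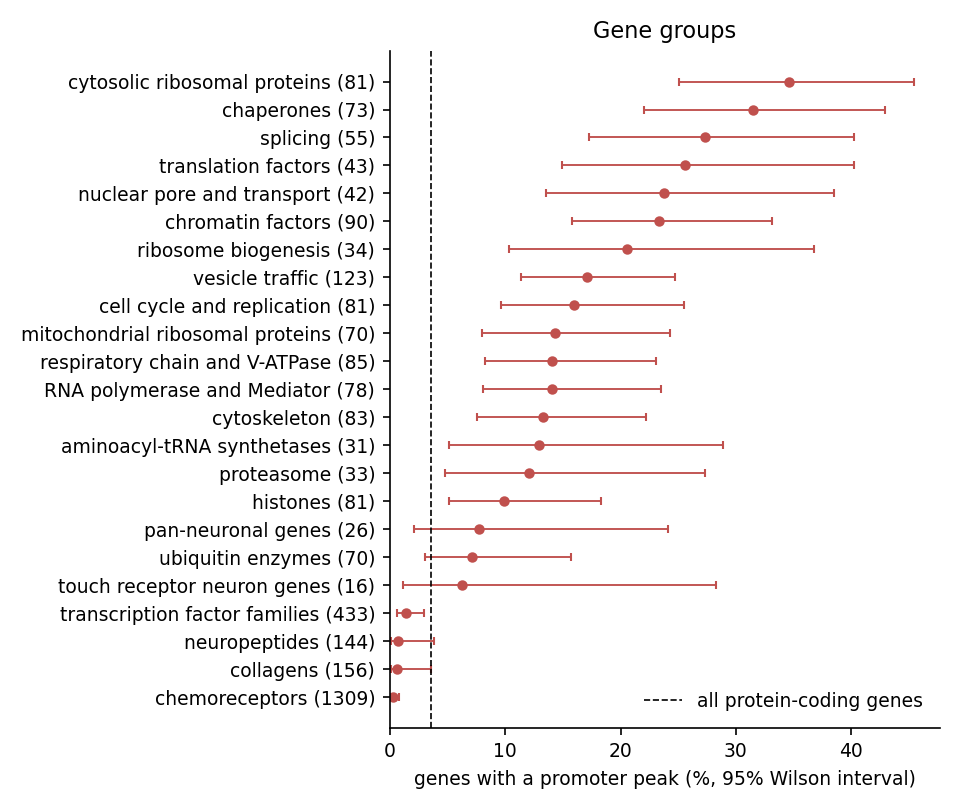
Percentage of the genes of each list with a promoter peak (x axis) with 95% Wilson intervals; list sizes are in brackets and the dashed line is the 3.59% of all protein-coding genes. Cytosolic ribosomal proteins (34.6%) and chaperones (31.5%) stand at the top, and chemoreceptors (0.306%) at the bottom.

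Cytosolic ribosomal proteins, which build the ribosome, had the highest share of the 23 lists in the full IDR list. By nearest gene translation factors had more (23.3% against 18.5%), and without replicate 2 chaperones did (30.1% against 29.6%). Of 81 such genes, 28 (34.6%; 25.1% to 45.4%) had a promoter peak. rpl-3 (signal 408), rpl-15 (308) and rpl-35 (297) led, and rpl-20 shared a summit of 253 with Y17G9B.5, an ECSIT homolog. The summit lay upstream of the ribosomal gene in 26 of the 28, at a median of -286 bp, and 18 of the 28 were at divergent promoters. The ribosomal gene was the nearest gene for 15. A further 43 of the 81 had only a weaker peak of the pooled list. The same count over all genes was not made, so the 43 cannot be read as many or few. Pairs of ribosomal genes shared a promoter in rpl-24.1 with rps-10 (signal 77.7) and rps-14 with rpl-36 (74.6).

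Translation factors had 11 of 43 genes (25.6%). Among them were ifet-1, a repressor that binds the cap-binding protein, at the promoter it shares with rps-1 (193), eif-3.C (173), a subunit of initiation factor 3, and iff-2 (131), the worm eIF5A. Mitochondrial ribosomal proteins had 10 of 70 (14.3%), led by mrps-17 (94.1), mrpl-55 (83.4) and mrpl-12 (77.7). The median of the best signal per gene was 75.6 for these 10 and 101 for the 28 cytosolic genes, and the signals of the sets overlap: mrpl-49 and rpl-28 share a summit of 66.2. Without replicate 2 the mitochondrial share was 7.14% (3.1% to 15.7%), an interval that takes in the 3.53% of all genes in that setting. Aminoacyl-tRNA synthetases had 4 of 31 (12.9%): ears-2 (375), mars-1 (97.9), tars-1 (71.6) and kars-1 (66.7). Without replicate 1 there were 2 (6.45%; 1.79% to 20.7%), which takes in the 3.27% of all genes in that setting. Ribosome biogenesis genes had 7 of 34 (20.6%), led by krr-1 (146), fib-1 (143), the fibrillarin gene, and exos-9 (92.6), an exosome subunit.

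Genes of protein folding and turnover were counted next. Chaperone genes had 23 of 73 (31.5%; 22.0% to 42.9%), all with the summit upstream, led by cdc-48.1 (258), hsp-60 (222) and dnj-29 (219). Both replicates held these 3 at close to equal signal: 134 and 123 at cdc-48.1, 106 and 117 at hsp-60, and 110 and 112 at dnj-29. hsp-1 (210), cct-8 (182), of the cytosolic chaperonin, and hsp-90 (152) followed. The proteasome had 4 of 33 (12.1%; 4.82% to 27.3%), among them rpn-3 (111), rpn-7 (96.2) and rpn-11 (80.2), subunits of the regulatory particle. Without replicate 2 it had 3 (9.09%; 3.14% to 23.6%), which takes in the 3.53% of all genes. Ubiquitin enzymes had 5 of 70 (7.14%; 3.1% to 15.7%), led by usp-4 (129), math-33 (127) and uba-5 (121), and the interval takes in the 3.59% of all genes. With single replicates it did not: the share was 8.57% (3.99% to 17.5%) without replicate 1 and 12.9% (6.91% to 22.7%) without replicate 2.

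Genes of RNA and chromatin followed. Splicing had 15 of 55 genes (27.3%), led by snr-1 (271; 146 in replicate 1 and 128 in replicate 2), the SmD3 gene, prp-19 (139) and sluh-7 (113). Without replicate 1 the splicing share was 16.4%. RNA polymerase and Mediator had 11 of 78 (14.1%), led by mdt-19 (143), mdt-8 (141) and mdt-26 (123). The mdt-8 value comes from a summit 976 bp upstream that was nearest to Y62F5A.12, where most of the sequence at the summit occurs more than once in the genome, and replicate 2 had no summit there. Chromatin factors had 21 of 90 (23.3%), led by lin-35 (222; 118 in replicate 1 and 103 in replicate 2), the worm retinoblastoma relative, swsn-3 (198), of the SWI/SNF complex, and mrg-1 (174). Histones had 8 of 81 (9.88%), with 1 summit for his-68 and his-67 (182) and 1 for his-62 and his-61 (110). Histone genes are near-identical copies, so their values are uncertain.

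Cell division and transport showed intermediate shares. Cell cycle and replication had 13 of 81 (16.0%), led by mcm-10 (163), scc-2 (156), the cohesin loader, and emb-1 (139). The emb-1 value is the same summit as that given for prp-19. Nuclear pore and transport genes had 10 of 42 (23.8%), led by the nucleoporin genes npp-6 (164), npp-8 (148) and npp-14 (126). Only 3 of the 42 were the nearest gene of a peak, and the summits given for npp-6 and npp-14 are nearest to spd-5 and cel-1. Vesicle traffic had 21 of 123 (17.1%), led by snx-13 (271), rab-7 (227) and vps-51 (222). Respiratory chain and V-ATPase genes had 12 of 85 (14.1%), led by ndua-2 (219), cox-6B (136) and cox-5B (134). The cytoskeleton had 11 of 83 (13.3%), led by tba-7 (144), klp-6 (130) and tbg-1 (116). The klp-6 and tba-7 summits lay downstream of the start, and at klp-6 most of the sequence at the summit was repeated elsewhere.

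Both sides belonged to the 17 lists at 21 of the 200 divergent promoters (10.5%), and 1 side at 86 (43.0%). The strongest were snx-13 with snr-1, vps-51 with lin-35, and dnj-29 with ndua-2. Peaks with a gene of these lists were divergent in 111 of 195 cases (56.9%; 49.9% to 63.7%), and positions 179 bp upstream of the listed genes themselves in 510 of 1144 (44.6%; 41.7% to 47.5%), a difference of 12.3 points (4.75 to 19.7). Weaker peaks with such a gene were divergent in 248 of 614 cases (40.4%). The remaining 302 peaks were divergent in 89 cases (29.5%). The peaks and the positions were not anchored alike: a listed gene on either side within 1 kb counted for a peak, which favours divergent peaks. Where the nearest gene was a listed one, 59 of 139 peaks were divergent, no higher a share than that of the positions. The listed genes are thus more often divergent in the annotation (44.6%) than all genes (20.4%).

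Of 6 lists of regulated and tissue-specific genes, 3 had an interval below the 3.59% of all genes (chemoreceptors, transcription factors and collagens), and 3 had an interval that takes it in. Chemoreceptors, the large families of seven-pass receptors, had 4 of 1309 genes (0.306%; 0.119% to 0.783%), and all 4, led by sre-1 (208), sri-5 (179) and srh-16 (107), were at divergent promoters. The nearest start belonged to another gene at sre-1 (B0495.9) and at srh-89 (F25E5.1). Transcription factor families had 6 of 433 (1.39%; 0.637% to 2.99%): nhr-47, ceh-38, nhr-142, unc-86, zip-4 and daf-19, at signals of 68.2 to 104. With a single replicate the interval took in the share of all genes: it was 0.785% to 3.30% beside 3.27% without replicate 1, and 0.939% to 3.6% beside 3.53% without replicate 2. By nearest gene it did so too (0.494% to 2.67% beside 2.41%). The nhr-142 summit was nearest to F44E7.9. Collagens had 1 of 156 (col-71; 0.641%; 0.113% to 3.54%), with none without replicate 2, and without replicate 1 the interval took in the 3.27%. The col-71 summit was nearest to Y49F6B.2, so no collagen was the nearest gene of a peak. The collagen interval also took in the 2.85% of all genes with promoters within 500 bp, and the 1.72% in the stronger part of the list. Only the chemoreceptor interval stayed below the share of all genes in every setting. Neuropeptides had 1 of 144 (ins-39, found in replicate 2 only; 0.694%; 0.123% to 3.83%). Across these 6 lists 16 of the 497 peaks (3.22%) had a member within 1 kb.

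Touch receptor genes, several of which UNC-86 is known to regulate, and pan-neuronal genes are short lists whose intervals take in the share of all genes. Of 16 touch receptor mec genes mec-6 (signal 72.5, 312 bp upstream) had a peak (6.25%; 1.11% to 28.3%, beside 3.59%), and a further 4 had only a weaker peak of the pooled list. None of the promoter peaks described here lay at mec-3, mec-4, mec-7, mec-17 or mec-18. Of 26 pan-neuronal genes 2 had one, maco-1 (68.5) and egl-21 (65.2), close to the lowest signals of the list. That is 7.69% (2.14% to 24.1%), and 15 of the 26 had only a weaker peak. The count was 1 (3.85%) without replicate 1 and 3 (11.5%; 4% to 29.0%, beside 3.53%) without replicate 2. unc-86 itself had 2 summits. One, 25 bp upstream of a start, had a signal of 74.4, with 45.3 in replicate 1 and 28.4 in replicate 2. The other, 543 bp upstream of a start and inside an intron, had 72.8, with 40.2 and 32.5. The transgene holds unc-86 sequence in addition to the native gene, and reads from them cannot be told apart. unc-119, which the strain carries as a mutant allele, had no such peak. A gene without a peak here can still have a weaker one or one farther than 1 kb away. The share of all genes with only a weaker peak was not counted. The 4 touch receptor and 15 pan-neuronal genes with only such a peak therefore cannot be read as many or few.

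GC content was higher at the summits than in their flanks. In windows of 100 bp to each side the median GC content was 41.8% (quartiles 37.3% and 47.3%) for the 497 peaks, 47.8% for promoter peaks near small RNA genes and 35.3% for weaker promoter peaks. Windows of the same width centred 500 bp to each side had a median of 37.8%, and windows placed 179 bp upstream of every gene 33.3%. In steps of 25 bp the mean was 50% at the summit, 36.2% at 250 bp to the left and 35.4% at 250 bp to the right, on the plus strand. For weaker peaks the mean at the summit was 36.4%. Divergent peaks had a median of 39.8%, against 38.6% in their flanks, and one-sided peaks 43.3%, against 36.8% in theirs. The rise in these windows was thus larger at one-sided peaks.

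**Figure D5:**
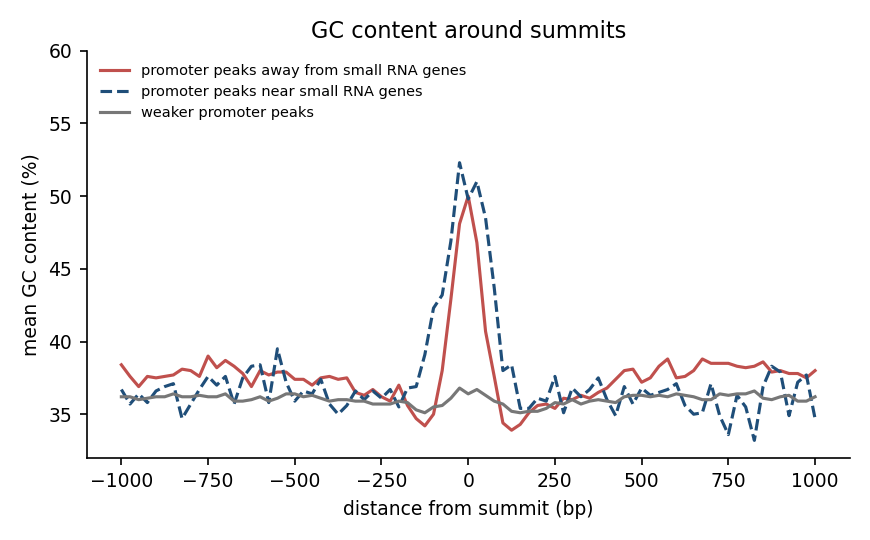
Mean GC content in 25-base steps (y axis) by distance from the summit on the plus strand (x axis, bp) for the 497 promoter peaks, the 87 promoter peaks near small RNA genes and the 5378 weaker promoter peaks. The first 2 curves rise to about 50% at the summit, and the third stays near 36.4%.

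Of the 13 words searched, 6 were more frequent at the summits than in the flanks, with an interval of the difference above 0. CCGCCC, on either strand, was in 77 of 497 windows (15.5%; 12.6% to 18.9%), against 3.22% of 994 flanks, 5.49% of weaker peaks and 4.83% of windows upstream of every gene. TGCGTCT was in 53 windows (10.7%), against 2.01% of flanks, 4.65% of weaker peaks and 3.35% upstream of every gene. GAGAGAGA was in 32 windows (6.44%), against 1.21%, 2.73% and 2.39%. TGACGT, the half-site of CREB-type factors, was in 46 (9.26%), against 5.73%, 5.84% and 7.21%. Its difference from the windows upstream of every gene was 2.05 points (-0.227 to 4.94), an interval that includes 0. Its difference from the flanks was 3.52 points, and without replicate 1 it was 1.40 points (-1.38 to 4.56).

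Of the words known for POU and homeodomain proteins, only AATGCAT had an interval of the difference from the flanks above 0. AATGCAT was in 25 windows (5.03%), against 2.52% of flanks, 3.27% of weaker peaks and 3.03% upstream of every gene. The difference from weaker peaks was 1.76 points (0.0782 to 4.09). The difference from the flanks was 2.52 points in the full list and 1.83 points with either replicate left out, with intervals that then include 0 (from -0.0385 without replicate 1 and from -0.0381 without replicate 2). The octamer ATGCAAAT was in 6 (1.21%), against 1.51%, 1.62% and 1.83%, and TAATTA, a homeodomain core, in 41 (8.25%), against 11%, 10.1% and 11.9%. TTTCGCGC, an E2F-type word, was in 11 (2.21%), against 0.402%, 1.47% and 0.943%. Its difference from weaker peaks was 0.744 points (-0.292 to 2.47), an interval that includes 0. For ATGCAAAT, TAATTA, TTTCCCGC and the E-box CACGTG the interval of the difference from the flanks included 0. Against the windows upstream of every gene, TAATTA was lower by an interval that left out 0 (-3.67 points, -5.83 to -0.884). The words searched on either strand overlap in part, since AATGCAT and its reverse complement share most of their bases.

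A further 3 words were less frequent than in the flanks. TTTCAG, like the acceptor of splicing and trans-splicing, was in 129 windows (26%), against 44.4% of flanks, 35.8% of weaker peaks and 29.4% upstream of every gene. For TTTCAG the difference from the windows upstream of every gene was -3.48 points (-7.2 to 0.592). The limits of that interval have opposite signs, so a lower share than in those windows is not shown. TATAAA was in 65 (13.1%), against 18.2%, 23.3% and 25%, and its difference from the flanks shrank to -0.503 points (-5.19 to 4.37) in windows of 150 bp to each side. GATAAG, the GATA-factor word of the intestine, was in 16 (3.22%), against 7.65%, 6.08% and 10.6%. GC content differs between these windows too, and its part in the word counts was not tested. By promoter class, CCGCCC was in 38 of 200 divergent windows (19.0%) and 39 of 296 one-sided windows (13.2%), and GAGAGAGA in 7 (3.50%) and 24 (8.11%). The word nearest to the summit lay at a median of 39.5 bp for TGCGTCT and 44.5 bp for GAGAGAGA. Only 100 bp to each side were searched, and the distance under random placement was not computed. These medians therefore do not show that the words sit at the summits.

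Chromosomes were not covered alike. Chromosomes III and I held 109 (21.9%) and 108 (21.7%) of the 497 peaks, and 13.2% and 14.4% of protein-coding genes. Chromosome V held 69 (13.9%), against 25% of genes, and X 46 (9.26%), against 13.7%. Weaker promoter peaks had 17.9% on III, 20% on I, 16.9% on V and 11.9% on X. Of the 30 strongest peaks 11 were on chromosome III. Repeated sequence was a small part: for 455 peaks (91.5%) no stretch of 30 bases in the 100 bp to each side of the summit occurred a second time in the genome, against 31 of 87 peaks near small RNA genes (35.6%) and 4609 weaker peaks (85.7%). In 8 peaks (1.61%), at eel-1, Y62F5A.12, unc-85, klp-6, set-25, Y50D4A.6, C26B2.7 and C09E7.7, more than 50% of such stretches were repeated.

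The peaks just inside and just outside the limits of the selection lay close to each other. The kept peaks farthest from a start were at dhs-8 (994 bp upstream), mbk-2 (982 bp downstream) and M01F1.9 (980 bp upstream), and the nearest left out were at T28F4.1 (1006 bp upstream), bud-31 (1008 bp upstream) and T27A8.7 (1022 bp downstream). Kept peaks closest to a small RNA gene were at ska-3 (320 bp), ippk-1 (330 bp) and Y87G2A.18 (373 bp). Those left out last were at tmem-107 (282 bp), egg-5 (231 bp) and nlp-4 (187 bp). The lowest kept signals were 64.7 at dagl-2, 64.8 at unc-16 and 64.8 at mys-1. The highest signals among promoter peaks below the IDR list were 64.7 at gsp-2, 64.6 at calu-1 and 64.6 at F13E9.11.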

How the data were processed

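UNC-86::GFP was measured by ChIP-seq in 2 replicates of 1 group. The ce11 peak lists deposited by the authors were used: the optimal IDR list, the pooled list and 1 list per replicate. The pooled and replicate lists include background by their titles. Each gives the interval, the summit, a signal per peak (column 7, deposited by the authors in a unit that the file headers do not state) and a −log10 q-value (deposited by the authors, which did not enter any result). The sources used here do not give the aligner, the peak caller, the IDR threshold or the depth; a control alignment entered each list, per the file headers. The lists aligned to ce10 and the signal tracks were not used. Summits were set against protein-coding transcript starts and small RNA genes of Ensembl release 115 (WBcel235), and sequences and products were taken from the RefSeq genome and annotation of the same assembly, WBcel235. The IDR list held the 816 pooled peaks of highest signal. Shares have 95% Wilson intervals, differences of shares 95% Newcombe intervals and medians order-statistic intervals. They cover counting error over peaks and not the spread between animals, and no p-value was computed, since there is 1 group and peaks are not replicates.

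The peaks and gene lists were chosen with earlier results of these data known. Named genes are the nearest genes of the 30 strongest peaks, up to 3 genes per list, both genes of the 5 strongest divergent promoters, and 3 peaks on each side of each threshold; mrps-7, hil-7, gpb-1, F08F8.10, pak-2, the promoters shared by 2 listed genes, the peaks in repeated sequence and the further genes of short lists were named after their values were seen. The programs were tested on simulated positions and sequences. Python 3.11.15 was used with SciPy 1.17.1 for the intervals, pandas 2.3.3 and numpy 2.4.6 for the tables and matplotlib 3.10.9 for the plots. Alternatives were other distances, other start sets, the interval middle, the stronger part of the list, 1 summit per interval or gene, other matches, windows and flanks, and each replicate alone.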

Additional observations from a re-analysis of the deposited data

How the results depend on the processing

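The count of promoter peaks was between 435 and 530 when the promoter distance, the small RNA distance, the start set, the position of the peak or the summit rule was changed. The 408 strongest peaks of the IDR list held 228 of them, with 344 genes, a median signal of 119, an upstream share of 93.9% and a share among the strongest of both replicates of 94.7%; the smaller counts and the higher signal follow from keeping fewer and stronger peaks, and the cause of the higher shares was not tested. The divergent share rests on the distance allowed: it was 32.6% with promoters within 500 bp and 50% within 2 kb, and, for the same 497 peaks, 28.6% with both starts within 500 bp and 52.9% within 2 kb. A wider window can only add starts. The share among the strongest of both replicates was 46.1% with summits matched within 50 bp, 83.7% with the 1632 strongest peaks of each replicate and 29.0% with the 408 strongest.

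With a single replicate's 816 strongest peaks in place of the IDR list (replicate 2, then replicate 1, alone), there were 464 and 493 promoter peaks with 654 and 705 genes, a divergent share of 36.9% and 39.6%, a median distance of -179 and -184 bp, and an upstream share of 90.1% and 89.5%. The median signal was 44.8 and 46.2 on each replicate's own scale. Words more frequent than in the flanks numbered 4 and 6 (6 in the full list), and lists above all genes 16 and 16; lists below all genes numbered 1 and 2 (3 in the full list). Among 78 further values for single words 75 stayed within the interval of the full list, and among 138 for single gene lists 107 did. No difference from the flanks whose interval left out 0 changed sign, but it came to include 0 for TGACGT under all alternatives except leaving out replicate 2, for AATGCAT in windows of 50 bp, in the stronger part of the list and with either replicate left out, and for TATAAA in windows of 150 bp and in the stronger part. Differences whose interval included 0 did change sign: CACGTG, at -0.101 points, was at 0.201 in windows of 50 bp, 0.905 against flanks at 1 kb, 1.54 in the stronger part and 0.108 without replicate 1, and ATGCAAAT, at -0.302, was at 0.439 in the stronger part. No paired analysis was possible because there is only 1 group. Signals carry no read counts, so depth limits cannot be stated.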
